A study of Homo sapiens with 8 samples.

Results

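The comparison described here sets the 2 arrays labelled with a short hairpin against BMI1 (shBMI1) beside the 2 arrays labelled with a hairpin against GFP (shGFP). These are 4 of the 8 arrays of the series, taken by their hairpin label, and all 14884 genes that a probe set names were measured on them. The cells are labelled SCC13, an established line from a human squamous cell carcinoma of the skin. GFP, the green fluorescent protein of a jellyfish, has no counterpart in human cells, so the shGFP hairpin is the control. The other 4 arrays carry hairpins against RING1B (shRING1B) and EZH2 (shEZH2), 2 arrays each, and here they show where shBMI1 stands apart. No other treatment, genotype or time is given for any group, and the 4 groups share the cell line field and the hairpin approach. No label states that the paired arrays of a group are separate cultures. The p-values here therefore reflect array-to-array spread alone, and that spread may be technical. The series title names RING1B and EZH2 as repressors of inflammatory genes, and a purpose for the shBMI1 arrays is not stated there.

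BMI1 is a subunit of Polycomb repressive complex 1 (PRC1). It pairs with RING1B, the enzyme that attaches ubiquitin to histone H2A, and chromobox subunits such as CBX2 bring the complex to chromatin that Polycomb repressive complex 2 (PRC2) has methylated through EZH2. The complexes keep developmental regulators silent, among them the HOX genes, and BMI1 is best known for holding down the cell cycle inhibitor locus CDKN2A. In skin it is known for sustaining the growth of keratinocytes.

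Across the arrays the data were close to uniform. Values are log2 expression, so a difference of 1 is a doubling, and the median over 53617 probe sets was 5.49 to 5.52 on every array. Gene values of the 2 shBMI1 arrays correlated with each other at 0.995 and with the shGFP arrays at 0.994 to 0.996, so over all genes a shBMI1 array was as like a control array as it was like its partner. Array titles begin with SCCL3 for shEZH2 and with SCC13 for the others, so a difference of line or batch cannot be told apart from that hairpin, and values against all other hairpins carry this limit. The squamous keratinocyte genes KRT5 (10.34 and 10.56 on the shBMI1 arrays), DSP (11.35 and 11.36) and SFN (11.45 and 11.53) were high on these arrays, and these genes define the labelled cell type. BMI1 itself is named by no probe set here, nor is RNF2, the gene of RING1B, so the knockdown was not checked and each group is called by its label.

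With shBMI1 against shGFP, 0 of 14884 genes (0%) passed a Benjamini-Hochberg adjusted p under 0.05 in limma's moderated test, and the smallest adjusted p was 0.223. At an unadjusted p under 0.05 stood 830 genes (5.58%), where chance gives 744.2. Of these 430 (2.89%) were higher and 400 (2.69%) lower. The differences were small as well as uncalled. Over all genes they ran from -0.95 to 0.87 with a median of -0.0094, and 0 genes with an unadjusted p under 0.05 reached 1 log2 unit. For 14772 genes (99.2%) the 95% interval lay within 1 log2 unit of 0, and for 12052 (81%) it lay within 0.5. A change of 1 log2 unit was thus outside the interval for nearly every named gene, and smaller ones were inside it for many. With 2 arrays against 2, an exact permutation test of a single gene cannot go below p = 0.333.

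**Figure D1:**
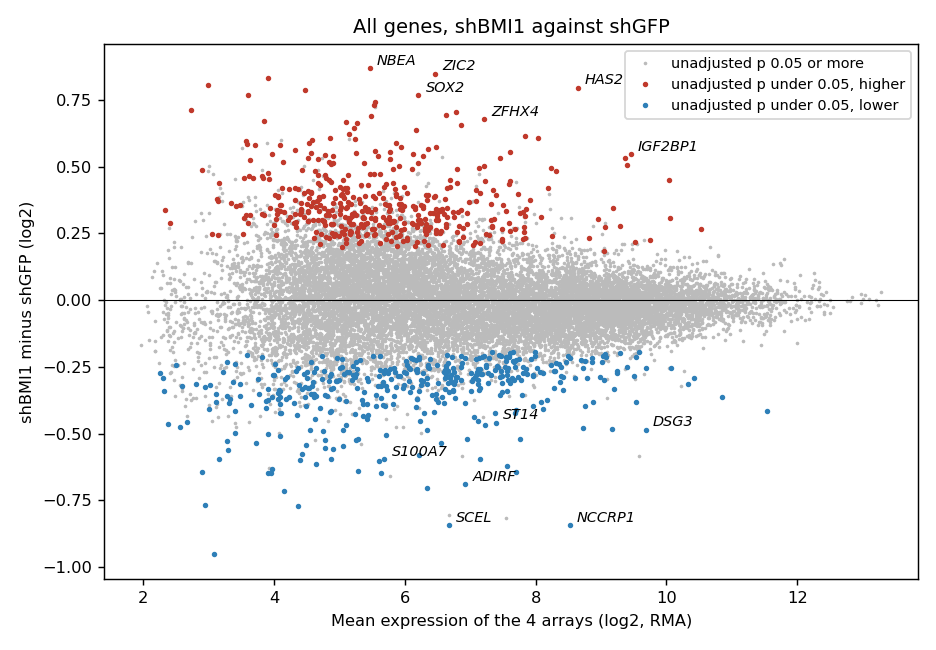
Each point is 1 of 14884 genes, with its mean log2 expression over the 2 shBMI1 and 2 shGFP arrays on the horizontal axis and the shBMI1 minus shGFP difference (log2) on the vertical axis. Coloured points have an unadjusted p under 0.05 (430 higher, 400 lower), and no point reaches 1 log2 unit in either direction.

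The largest positive differences among protein-coding genes included developmental transcription factors and genes of the cell surface. ZIC2, a zinc finger factor of the developing brain, read 6.96 and 6.80 on the shBMI1 arrays, 6.11 and 5.96 with shGFP, 6.47 and 6.21 with shRING1B, and 6.18 and 6.11 with shEZH2. Both shBMI1 arrays lay above the other 6, and the difference from shGFP was 0.85 ± 0.12 (SE, n = 2 per group, limma adjusted p = 0.223). SOX2, a factor of stem and progenitor cells, stood at 6.62 and 6.56 with shBMI1 and at 5.96 and 5.69 with shGFP. The shRING1B arrays (6.03 and 5.97) and shEZH2 arrays (5.77 and 6.02) were at the control level, so shBMI1 was again highest, by 0.77 ± 0.12 over shGFP (adjusted p = 0.316). JAM3, a junctional adhesion molecule, measured 7.16 and 7.23 against 6.58 and 6.49 in the control, with the other 4 arrays between 6.90 and 7.03. ADAM23, a membrane protein with a disintegrin domain, reached 5.96 and 5.88 against 5.20 and 5.16. Its shEZH2 arrays came close to shBMI1, at 5.71 and 5.88.

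For the other genes of this group shBMI1 was not set apart from the remaining knockdowns. NBEA, a scaffold protein of membrane traffic, had the largest positive difference, 0.87 ± 0.11 (adjusted p = 0.223), from 5.96 and 5.83 with shBMI1 and 5.12 and 4.94 with shGFP. The shEZH2 arrays, at 5.79 and 5.87, overlapped the shBMI1 arrays. HAS2, which makes the matrix polysaccharide hyaluronan, was at 8.87 and 9.20 with shBMI1 and at 8.12 and 8.37 with shGFP. Its shRING1B arrays (9.15 and 9.33) and shEZH2 arrays (9.35 and 9.41) were as high or higher. The monocyte-attracting chemokine CCL7 was dim, at 4.47 and 4.18 against 3.49 and 3.50, and 1 shEZH2 array matched it at 4.47. The interleukin-7 receptor chain IL7R (difference 0.70), the ependymin-related protein EPDR1 (0.69), the secreted lectin REG1A (0.77) and the testis phosphatase homologue TPTE2 (0.79) also overlapped at least 1 array of another knockdown. TPTE2 has near-identical copies, so its signal may be shared among them. In all, 5 of the 12 largest positive differences had both shBMI1 arrays above the other 6 arrays. The fifth, ZFHX4, is described with the genes that passed a test. Both shBMI1 arrays were also above the other 6 for 138 of the 430 genes higher at an unadjusted p under 0.05 (32.1%). Of all 14884 genes this held for 431 (2.9%). Since the 12 were picked by their difference from shGFP, their share is a description only.

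On the lower side the largest differences among protein-coding genes, picked by the same rule, were spread over genes of several kinds. NCCRP1, a protein of stratified squamous epithelia, read 7.82 and 8.38 on the shBMI1 arrays against 8.84 and 9.05 with shGFP, 8.93 and 9.10 with shRING1B, and 9.63 and 9.55 with shEZH2. Both shBMI1 arrays were the lowest of the 8, although they differed from each other by more than the controls did, and the difference was -0.84 ± 0.18 (adjusted p = 0.542). SCEL, sciellin, a precursor of the cornified envelope, measured 6.10 and 6.42 against 6.99 and 7.21. There the shRING1B arrays reached the same low level, at 5.87 and 6.45. TSPAN1, a tetraspanin of epithelial membranes, was at 6.13 and 5.86 against 6.70 and 6.69. FXYD3, a regulator of the sodium pump, varied within groups, with 6.97 and 7.54 for shBMI1 and 7.58 and 8.17 for shGFP. PRR15, a small proline-rich protein, had a difference of -0.64, and IGFL2, of the insulin growth factor-like family, had -0.59. Both overlapped arrays of the other knockdowns. RSPH10B2 (-0.77), MT1B (-0.71), SPAG11A (-0.61) and PSG6 (-0.60) belong to families with near-identical copies and are uncertain for that reason. Both shBMI1 arrays were below the other 6 for 8 of these 12 genes. The same held for 186 of the 400 genes lower at an unadjusted p under 0.05 (46.5%), and for 614 of all genes (4.13%). These 12 were also picked by their difference from shGFP, so their share too is a description only.

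**Figure D2:**
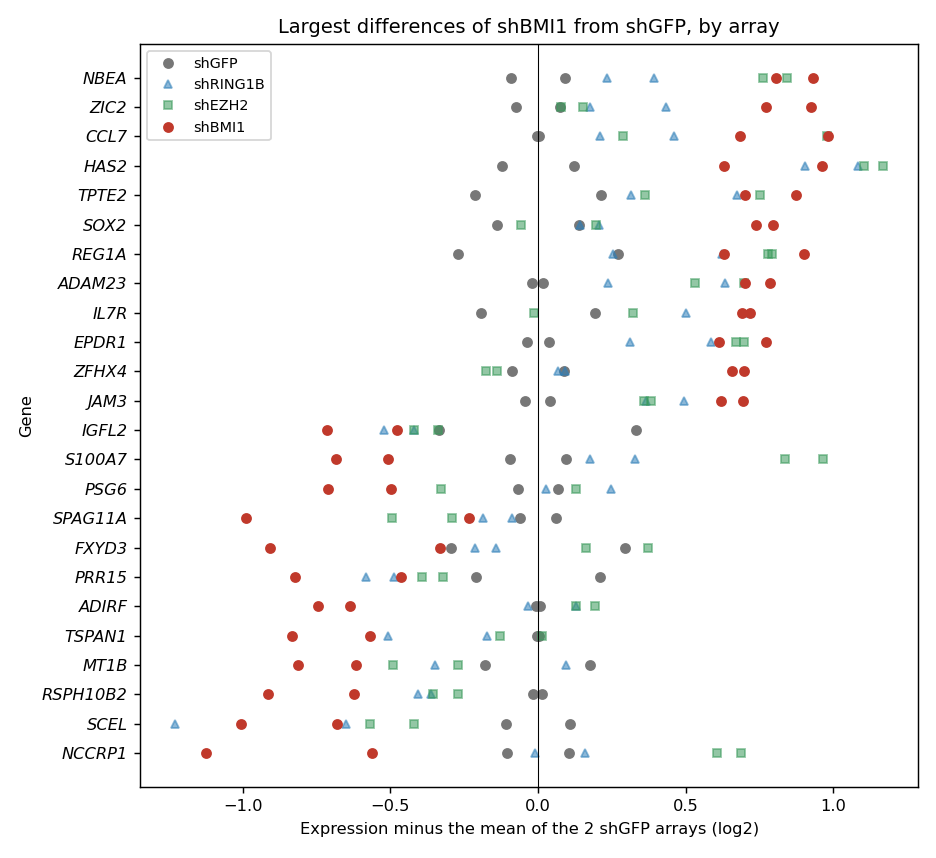
Each row is a gene, and each point is an array, plotted as its log2 expression minus the mean of the 2 shGFP arrays; red is shBMI1, grey shGFP, blue shRING1B and green shEZH2. The 12 genes at the top have the largest positive and the 12 below the largest negative shBMI1 differences, and for HAS2 both other knockdowns, and for NBEA shEZH2, lie about as far from shGFP as shBMI1 does.

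Single genes passed a test when shBMI1 was set against the mean of the other 3 hairpins, which asks where these arrays differ from the rest of the series. Here 8 of 14884 genes (0.0537%) passed an adjusted p under 0.05 in limma's moderated test, 3 higher and 5 lower, and 1299 (8.73%) had an unadjusted p under 0.05. Both shBMI1 arrays lay outside the other 6 for each of the 8, which were picked by their difference from those same arrays. Of all genes, 431 (2.9%) had both above the other 6 and 614 (4.13%) had both below. Against shGFP alone 7 of them had an unadjusted p under 0.05, and none passed after adjustment (adjusted p from 0.223 to 0.903). None of the 8 passed when any 1 array was left out, and none passed without the shEZH2 arrays.

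The 3 that rose encode a transcription factor, a fetal RNA-binding protein and a membrane protein. ZFHX4, a zinc finger homeobox factor, read 7.57 and 7.53 with shBMI1, 6.96 and 6.79 with shGFP, 6.94 and 6.97 with shRING1B, and 6.74 and 6.70 with shEZH2. The other 6 arrays stayed within a narrow band below, and ZFHX4 was 0.70 ± 0.07 higher with shBMI1 than their mean (SE, adjusted p = 0.0291). Against shGFP alone it was 0.68 ± 0.09 higher (adjusted p = 0.223). IGF2BP1, which binds and protects mRNAs in embryonic and tumour cells, was at 9.72 and 9.73 with shBMI1 and 9.18 on both shGFP arrays. The shRING1B arrays (9.12 and 8.97) and shEZH2 arrays (8.79 and 8.94) were lower still. It rose by 0.69 ± 0.08 over the 3 other hairpins (adjusted p = 0.0341) and stood 0.55 ± 0.09 above shGFP (adjusted p = 0.316). ANO4, a membrane protein of the anoctamin family, was at 7.40 and 7.35 against 6.87 and 6.89 with shGFP and a mean of 6.95 ± 0.07 (SD, n = 2) with shRING1B. Its shEZH2 arrays were far below at 5.92 and 5.98, so much of its 0.78 ± 0.07 (adjusted p = 0.0284) comes from them. From shGFP it differed by 0.49 ± 0.08.

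The 5 that were lower include an epithelial junction protein and a skin antimicrobial protein. S100A7, psoriasin, an antimicrobial protein of inflamed epidermis, measured 5.30 and 5.48 with shBMI1, 5.89 and 6.08 with shGFP, 6.16 and 6.31 with shRING1B, and 6.82 and 6.95 with shEZH2. The 4 groups did not overlap, with shBMI1 at the bottom, and S100A7 fell by 0.98 against the other hairpins (SE 0.09, adjusted p = 0.0284). The difference from shGFP was -0.60 ± 0.11 (adjusted p = 0.443). OCLN, occludin, which seals tight junctions, had 5.99 and 6.03 with shBMI1, 6.33 and 6.43 with shGFP, 6.99 and 6.81 with shRING1B, and 7.31 and 7.19 with shEZH2. This is the same order of groups as for S100A7. OCLN was at -0.83 ± 0.08 against the mean of the others (adjusted p = 0.0284), and at -0.37 ± 0.10 against shGFP alone (adjusted p = 0.664). Much of the former came from shRING1B and shEZH2, which stood 0.52 and 0.87 above shGFP. ADIRF, a factor first described in fat cell formation, was at 6.52 and 6.63 against 7.26 and 7.27 in the control and between 7.23 and 7.46 on the other 4 arrays. RASEF, a Rab GTPase with calcium-binding EF hands, was at 5.97 and 5.90 against 6.50 and 6.52, with the other 4 arrays between 6.48 and 6.67. In both, the 6 arrays without shBMI1 were nearly level, and the differences from all 3 hairpins (ADIRF -0.76 ± 0.08, adjusted p = 0.0291; RASEF -0.62 ± 0.07, adjusted p = 0.0341) were close to those from shGFP alone (-0.69 and -0.58). CTH, the cystathionine cleaving enzyme of cysteine synthesis, was at 8.20 and 8.28 with shBMI1 and at 8.49 and 8.39 with shGFP. Most of its difference from the 3 hairpins (-0.71 ± 0.07, adjusted p = 0.0291) was set by the shEZH2 arrays, at 9.87 and 9.74, and it differed from shGFP by -0.20 ± 0.09.

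**Figure D3:**
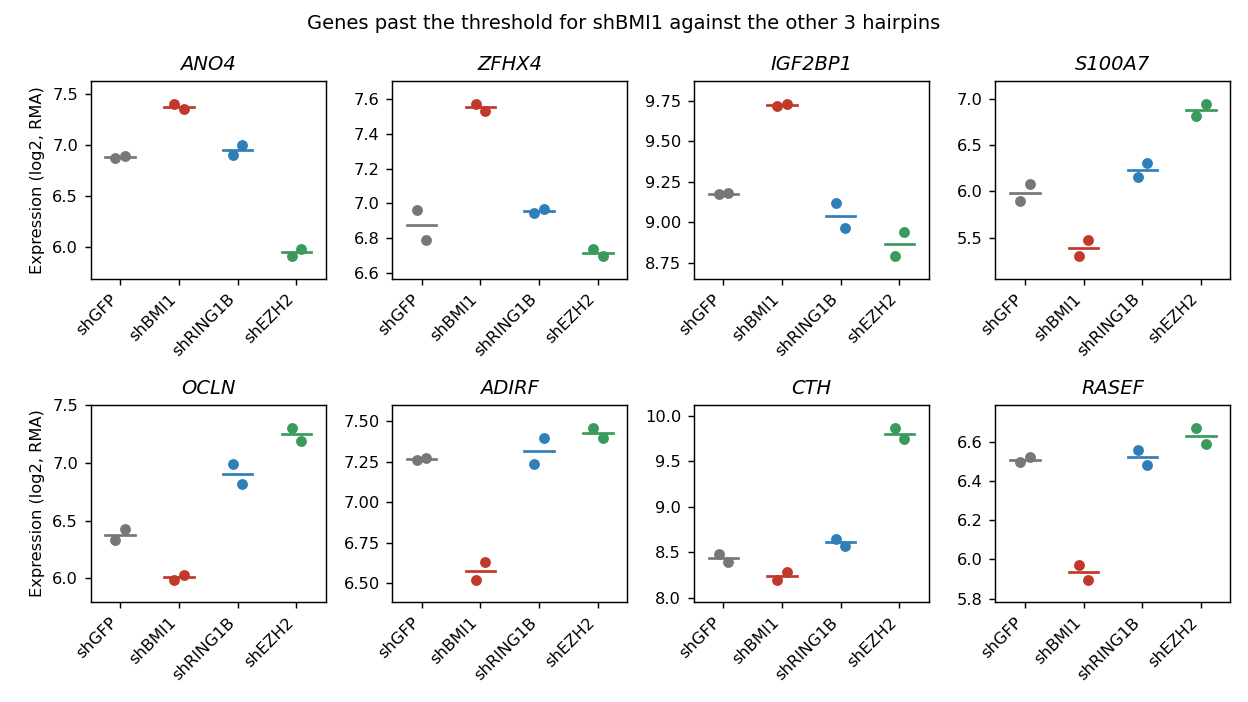
Points are arrays and bars group means of log2 expression for the 8 genes that passed the test of shBMI1 against the other 3 hairpins. In ZFHX4, IGF2BP1, ADIRF and RASEF the shBMI1 arrays stand apart from 6 similar arrays, while in ANO4 and CTH the shEZH2 arrays are the farthest from the rest.

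Both hairpins aimed at PRC1 were also compared directly, with no control array in the difference. Here 2 of 14884 genes (0.0134%) passed, and both were lower with shBMI1. LIF, a cytokine of the interleukin-6 family, was at 6.23 and 6.19 with shBMI1 and at 7.22 and 7.06 with shRING1B, a difference of -0.93 ± 0.09 (limma adjusted p = 0.0439). Its shGFP arrays (6.31 and 6.28) were at the shBMI1 level and its shEZH2 arrays (6.96 and 6.98) near those of shRING1B. KRTAP2-3, a hair keratin-associated protein from a family with near-identical copies, was at 7.51 and 7.48 with shBMI1 and at 8.75 and 8.49 with shRING1B, a difference of -1.13 ± 0.11 (adjusted p = 0.0439). Neither passed when any 1 of the 4 arrays was left out, with each array centred on its median, with array weights, with only the arrays compared, or without the shEZH2 arrays. Not past the threshold, on the lower side, were HEPHL1, a copper-dependent ferroxidase (-0.78), and STC1, the hormone stanniocalcin (-0.75). HMGA2, an architectural chromatin protein (0.71), MARK1, a kinase of microtubule proteins (0.72), and IGF2BP3, a relative of IGF2BP1 (0.54), were on the higher side. Each of these had an adjusted p of 0.102 except IGF2BP3, at 0.145. Against shGFP, HEPHL1 and STC1 were at 0.07 and 0.19 with shBMI1, and at 0.84 and 0.94 with shRING1B. HMGA2, MARK1 and IGF2BP3 were at 0.27, 0.57 and 0.17 against shGFP with shBMI1, and at -0.44, -0.14 and -0.36 with shRING1B.

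Genes of the Polycomb system were level between shBMI1 and shGFP. Of 24 measured PRC1 subunit genes 0 had an unadjusted p under 0.05, and their differences ran from -0.12 to 0.19 with a median of 0.02. The chromobox gene CBX2 was at the upper end, at 7.23 and 7.04 against 6.96 and 6.92 (difference 0.19 ± 0.10). The BMI1 relative PCGF2 (10.50 and 10.62 against 10.50 and 10.61) and the RING1B relative RING1 (9.73 and 9.85 against 9.80 and 9.89) overlapped the control. Of 9 PRC2 genes 0 had an unadjusted p under 0.05, with EZH2 at -0.06 ± 0.12 and the subunit PHF1 at 0.18 ± 0.09. Of 9 genes that oppose Polycomb, such as the histone demethylase KDM6B (-0.16 ± 0.11), 0 did.

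Known Polycomb targets had medians near 0 as groups, but the developmental factors below held a larger share at an unadjusted p under 0.05 than all genes. CDKN2A, the only one of 7 listed cell cycle inhibitors of the INK4 and CIP/KIP families that a probe set names, read 6.95 and 7.01 with shBMI1 and 7.01 and 6.91 with shGFP. The arrays overlapped, and the 95% interval of the difference (0.02 ± 0.09) held values of both signs. The array reports this locus as 1 value, so its separate INK4A and ARF transcripts were not told apart. Of 27 HOX genes the median was 0.0039, and HOXD12 alone had an unadjusted p under 0.05 (3.7% of the list, beside 5.58% of all genes). It was at 6.03 and 6.10 against 5.79 and 5.55. Among 92 other developmental transcription factors the median was 0.04, with 8 at an unadjusted p under 0.05 on the higher side and 3 on the lower (12% of the list, beside 5.58% of all genes). Beside ZIC2 and SOX2, the higher ones included the homeobox factors ALX4 (6.81 and 6.68 against 6.38 and 6.42) and MSX2 (6.59 and 6.71 against 6.39 and 6.28). Both shBMI1 arrays were above both shGFP arrays for 27 of the 92 genes (29.3%), where the same held for 2086 of all genes (14%). They were below both for 13 (14.1%), against 2646 of all genes (17.8%).

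Epithelial junction genes were mostly lower with shBMI1, though none passed after adjustment against shGFP. Desmosomes rivet keratinocytes together through cadherins (desmogleins and desmocollins) and the plakins behind them. Of 14 measured desmosome genes 12 had negative differences, the median was -0.16, and both shBMI1 arrays were below both shGFP arrays for 10 (71.4%, where 17.8% of all genes were). At an unadjusted p under 0.05 stood 3, all lower (21.4% of the list; 5.58% of all genes in either direction). DSG3, the desmoglein of the lower epidermis, was at 9.41 and 9.46 against 9.76 and 10.09, and the shRING1B arrays were as low at 9.22 and 9.46. DSC2, a desmocollin, was at 8.84 and 8.94, below the other 6 arrays, which ran from 9.04 to 9.47. The plakin PPL was at 6.44 and 6.52 against 6.69 and 6.79. DSC3, another desmocollin, went against the list, with a difference of 0.44 and arrays that overlapped the control (8.14 and 7.70 against 7.77 and 7.19).

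Tight and adherens junction genes, with the factors that maintain them, had the same tilt. Of 28 measured genes 22 were negative, and the median was -0.13. Both shBMI1 arrays were below both shGFP arrays for 14 (50%, where 17.8% of all genes were). At an unadjusted p under 0.05 were 5, all lower (17.9% of the list, beside 2.69% of all genes). ST14, the membrane protease matriptase, had 7.18 and 7.14 with shBMI1, 7.68 and 7.56 with shGFP, 7.53 and 7.51 with shRING1B, and 7.69 and 7.70 with shEZH2. MARVELD3, a tight junction protein related to occludin, was at 8.48 and 8.63 against 8.85 and 9.05, with the other 4 arrays between 8.76 and 8.88. CRB3, of the Crumbs polarity complex, was at 6.45 and 6.57 against 6.79 and 6.91, with the others between 6.85 and 7.13. For these 3, as for OCLN, both shBMI1 arrays were the lowest of the 8. The list was below the rest for 7 of its 28 genes in this sense, beside 4.13% of all genes. In the test against the other 3 hairpins OCLN alone of the list was called.

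The zinc finger repressors ZEB1, ZEB2 and the SNAIL family are known to bind the letters CAGGTG, or CACCTG on the other strand, in promoters of epithelial genes. The 2 promoters printed here belong to junction genes that were below all other arrays with shBMI1, and capitals mark these letters. They are examples, and no rule was set for their choice. In all, 7 tight and adherens junction genes and 2 desmosome genes were below all other arrays. Each is the 250 bases before a RefSeq start site (GRCh38.p14), CRB3 at chr19:6464021-6464270 and OCLN at chr5:69492297-69492546, both on the plus strand.
CRB3: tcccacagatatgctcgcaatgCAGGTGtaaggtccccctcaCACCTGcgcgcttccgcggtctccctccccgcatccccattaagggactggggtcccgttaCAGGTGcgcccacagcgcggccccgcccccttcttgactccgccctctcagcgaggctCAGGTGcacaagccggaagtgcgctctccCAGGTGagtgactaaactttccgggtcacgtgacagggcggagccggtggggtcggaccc
OCLN: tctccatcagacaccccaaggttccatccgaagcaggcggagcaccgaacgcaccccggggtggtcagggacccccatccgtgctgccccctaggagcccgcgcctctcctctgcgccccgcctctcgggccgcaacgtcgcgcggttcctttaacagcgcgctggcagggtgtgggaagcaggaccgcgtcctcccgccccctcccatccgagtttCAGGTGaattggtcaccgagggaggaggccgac
CRB3 holds 5 matches and OCLN 1, and a further OCLN window, not printed, also holds 1. Of all 35116 RefSeq windows of this length, 17.5% hold at least 1 match, and 26 hold 5 or more. Only 26 of the desmosome, tight and adherens junction genes measured have a window in the table. Of these, 13 (50%) hold a match in at least 1 window, beside 2278 of 10749 (21.2%) for all measured genes with a window. This share covers the junction genes whatever their difference with shBMI1. Among their 35 windows, that of CRB3 is the only one with 5 or more matches. A link of the matches to the differences was not tested. A match is a stretch of letters, and binding was not measured.

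Mesenchymal genes, those of motile or fibroblast-type cells, leaned the other way. Of 20 measured genes 17 were positive, the median was 0.11, and both shBMI1 arrays were above both shGFP arrays for 10 (50%, where 14% of all genes were). At an unadjusted p under 0.05 stood 6, all higher (30% of the list, beside 2.89% of all genes). ZEB2 was at 6.02 and 6.06 with shBMI1, 5.57 and 5.45 with shGFP, 5.71 on both shRING1B arrays, and 5.80 and 5.69 with shEZH2, so shBMI1 was the highest of the 4 groups. VIM, the filament protein vimentin, was at 9.80 and 9.49 against 9.26 and 9.02, also above every other array. CCN2, a secreted matrix protein and YAP target, was at 9.56 and 9.71 against 9.16 and 9.04. Its shRING1B arrays (9.43 and 9.74) overlapped, and its shEZH2 arrays (8.81 and 8.82) were lower. AXL, a receptor tyrosine kinase, was at 10.74 and 10.58 against 10.43 and 10.35. Its shRING1B arrays were higher (10.82 and 10.84) and its shEZH2 arrays lower (10.01 and 9.93). ZEB1 was at 6.91 and 6.37 against 6.34 and 5.81, a spread within each group nearly as large as the difference. SNAI1, a repressor of the same class, was at -0.15 and the matrix protein FN1 at -0.01.

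The matrix genes DCN, NID1 and VCAN were on the same side. Of 24 collagens and other matrix genes 14 were positive and 10 negative, with a median of 0.09. Both shBMI1 arrays were above both controls for 9 (37.5%, beside 14% of all genes) and below both for 4 (16.7%, beside 17.8%). An unadjusted p under 0.05 was found for 4, all higher (16.7% of the list, beside 2.89% of all genes). The proteoglycan DCN, counted in both lists, was at 7.45 and 7.46 against 6.94 and 7.08, with shEZH2 higher at 8.03 and 7.86. The others were FBLN5, an elastic fibre protein (0.41), NID1, a basement membrane link protein (0.49), and VCAN, the proteoglycan versican (0.34). All of these overlapped arrays of another knockdown. NID1, for example, was at 8.32 and 8.65 with shBMI1 and at 8.30 and 8.74 with shRING1B. In bulk RNA a change in the number of cells of a type cannot be told apart from a change of RNA per cell. DCN is also 1 of 8 measured fibroblast markers, whose summed log2 level was 48.7 to 49.3 with shBMI1 and 47.9 to 48.5 with shGFP. Their part in the mesenchymal result was not tested. Of the 11 squamous keratinocyte markers 8 were negative (median -0.10), with a summed level of 99.5 to 100.1 against 100.8 on both controls.

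**Figure D4:**
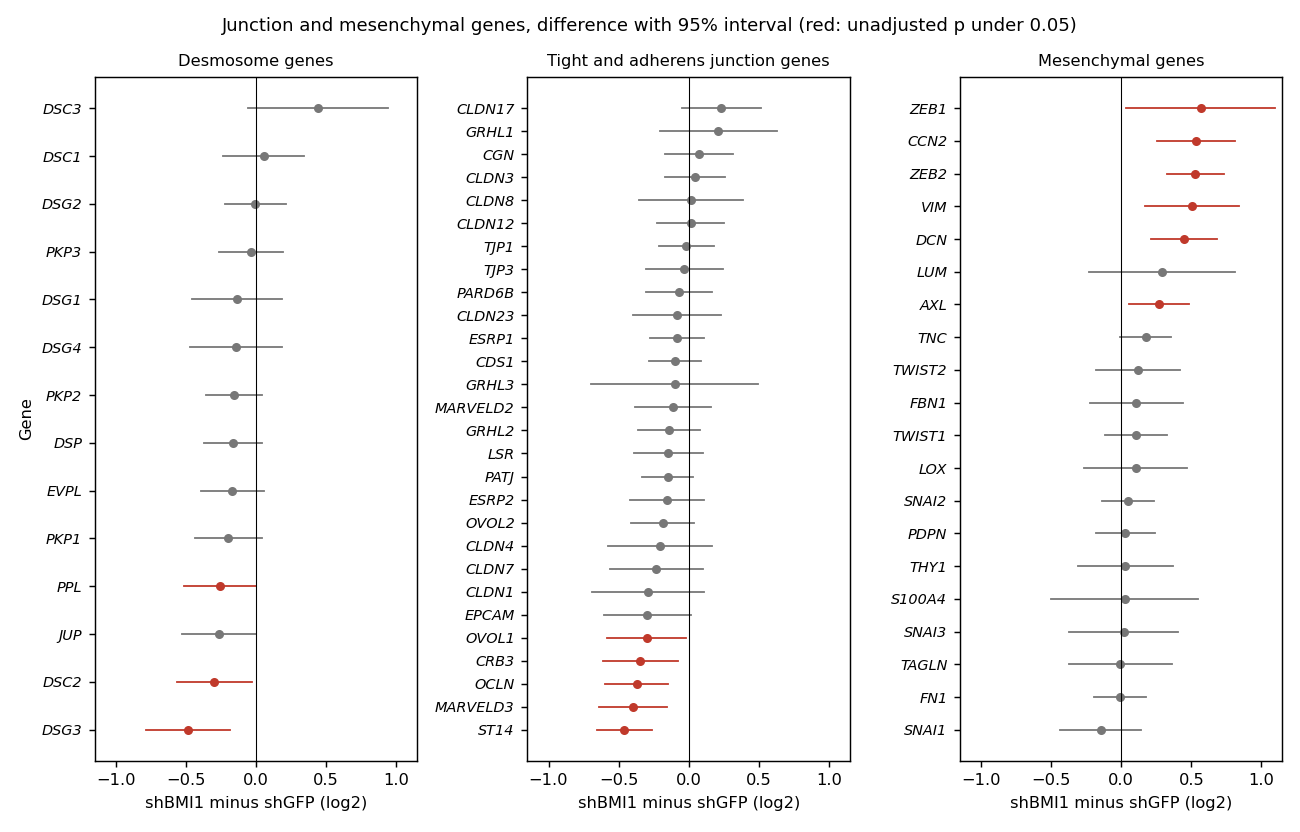
Points are shBMI1 minus shGFP differences (log2) and bars their 95% intervals, for the measured desmosome genes (14), tight and adherens junction genes (28) and mesenchymal genes (20); red marks an unadjusted p under 0.05. Most junction genes lie left of 0 and most mesenchymal genes right of it, with DSC3 and SNAI1 among the exceptions, and all but the red intervals reach 0.

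Differentiation genes of the skin were mixed. Among 25 keratins with a median of -0.07, an unadjusted p under 0.05 was found for 3, all lower (12%, beside 2.69% of all genes). KRT10, the keratin of the suprabasal layers, was at 6.58 and 6.80 against 7.11 and 7.32. The other knockdowns were as low, between 6.62 and 6.87, so the control arrays were the ones set apart. KRT78 was at -0.27, and KRT6C at -0.49, a gene with near-identical copies. Of 58 genes of epidermal differentiation 25 were positive and 33 negative, and at an unadjusted p under 0.05 were 3 in each direction (10.3% of the list, beside 5.58% of all genes). The protease inhibitor CST6 was at 7.43 and 7.56 against 7.83 and 7.98, and the cornified envelope genes LCE2A (0.42) and SPRR2A (0.54) were on the other side. Of 20 antimicrobial and S100 genes 9 were below both controls (45%, beside 17.8% of all genes) and 3 above both (15%, beside 14%). S100A14 was at 8.84 and 9.23 against 9.27 and 9.47.

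Inflammatory genes, the subject of the series title, showed single members on both sides. Among 34 chemokines with a median of 0.03, those with an unadjusted p under 0.05 were 4 on the higher side and 2 on the lower (17.6%, beside 5.58% of all genes). CXCL3, which draws neutrophils, was at 5.41 and 5.63 against 5.12 and 4.82, a level its shRING1B and shEZH2 arrays also reached (5.42 to 5.81). CXCL16 was at 8.68 and 8.69 with shBMI1 and at 9.01 and 9.12 with shGFP, below the shRING1B and shEZH2 arrays too (9.07 to 9.29). CCL26, an attractant of eosinophils, had the same pattern (-0.27 ± 0.09). Of 21 cytokines 1 had an unadjusted p under 0.05 (4.76%, beside 5.58% of all genes). This was IL15, a growth factor of T and NK cells, at 4.90 and 4.87 against 4.30 and 4.26. Among 19 NF-kB targets 0 had an unadjusted p under 0.05. Of 37 interferon-response genes 23 were positive and 14 negative, and 3 had an unadjusted p under 0.05 (8.11%, beside 5.58% of all genes), IFI44L (0.30), SAMD9L (0.40) and XAF1 (0.25). This list varied within groups, with a summed log2 level of 285.2 to 295.7 with shBMI1 and 281.4 to 295.6 with shGFP.

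Other regulators gave isolated values. LEF1, a transcription factor of WNT signalling, was at 6.91 and 6.93 against 6.48 and 6.45, above all other arrays. BCL2, the survival protein, was at 6.87 and 6.75 against 6.38 and 6.48, and also the highest of the 8. JAG2, a Notch ligand, was at 7.92 and 8.06 against 8.34 and 8.39. Genes without a protein product were among the smallest p-values. The long noncoding RNA CRNDE was at 5.94 and 5.85 against 5.27 and 5.05, with the other 4 arrays between 5.06 and 5.42 (difference 0.73 ± 0.10, adjusted p = 0.223). The probe set of MIR3662, a microRNA gene, was dim, at 3.46 and 3.47 against 4.05 and 3.95, and its shRING1B arrays (3.08 and 3.12) were lower. Its mature product (RefSeq, GRCh38.p14, chr6:134979355-134979378, minus strand) is shown to identify it, with the seed, bases 2 to 8, in capitals.
hsa-miR-3662: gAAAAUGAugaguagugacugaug
The assay labelled total RNA, and a probe set for such a short gene does not tell the mature form from its precursor.

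Over all 46 gene lists, 0 held a gene that passed after adjustment against shGFP. The median difference lay within 0.1 log2 units of 0 for 42 lists and beyond it for 4, namely desmosome genes, tight and adherens junction genes, mesenchymal genes, and a list of 4 myocyte and neuron markers (0.16). The list medians of each array show how far the 2 arrays of a group differ. For desmosome genes both shBMI1 arrays were at -0.15 relative to the control mean, with the controls at -0.05 and 0.05. For tight and adherens junction genes shBMI1 was at -0.19 and -0.08, and the controls at -0.02 and 0.02. For mesenchymal genes it was at 0.08 and 0.17, and the controls at -0.01 and 0.01. The shRING1B arrays had tilts of the same sign for desmosome genes (-0.08 and -0.07) and mesenchymal genes (0.22 and 0.07), and for tight and adherens junction genes they were at 0.02 and -0.03. In each of these lists the shBMI1 and shGFP arrays did not overlap, but this was not particular to them. Several lists with medians nearer 0 did not overlap either. For PRC1 subunits both shBMI1 arrays were at 0.03, with the controls at -0.02 and 0.02. For immediate early genes both were at -0.04, with the controls at 0.01 and -0.01. For epidermal differentiation genes, NF-kB targets and interferon-response genes the shBMI1 and shGFP arrays overlapped.

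**Figure D5:**
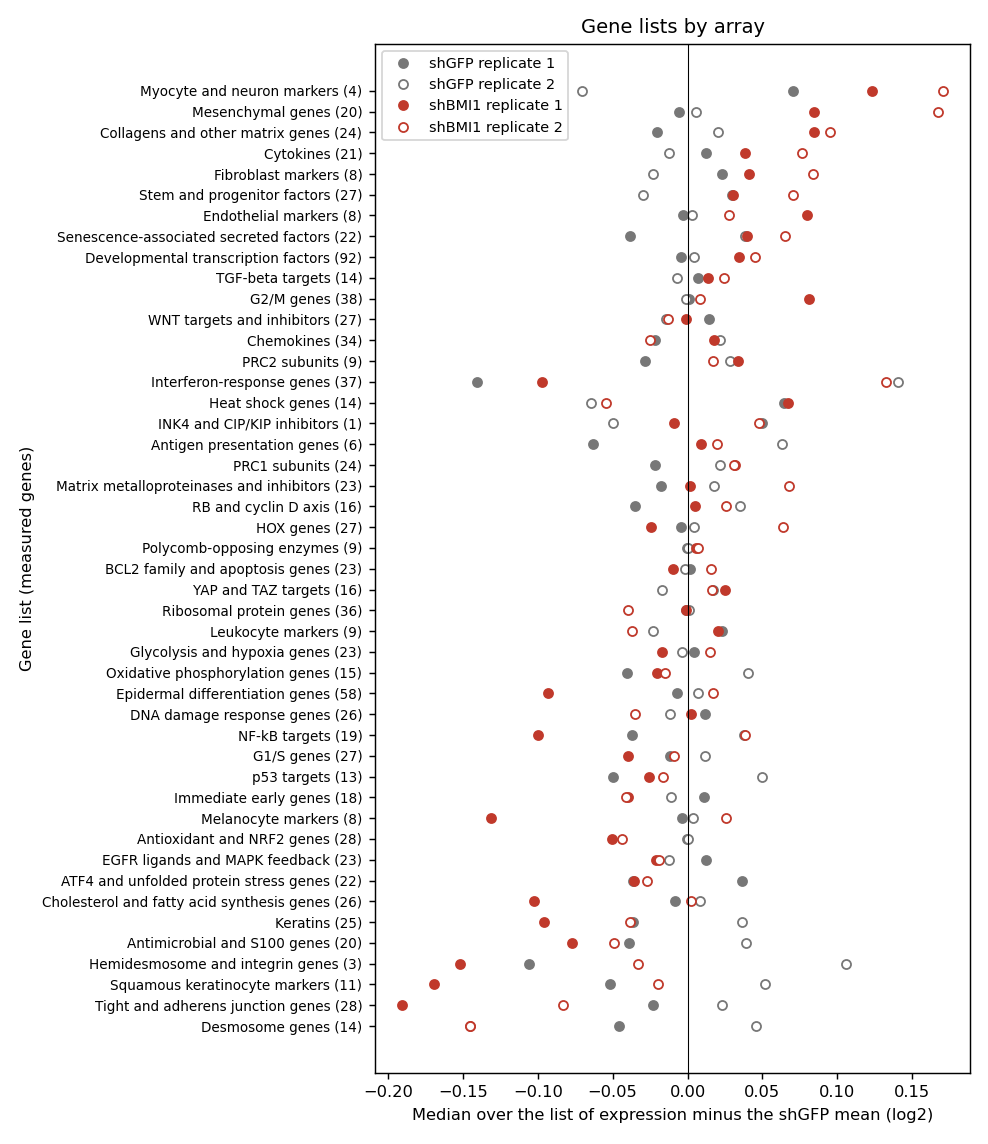
For each of 46 gene lists (measured genes in brackets), points give the median over the list of each array's log2 expression minus the shGFP mean; red is shBMI1, grey shGFP, filled replicate 1 and open replicate 2. Mesenchymal genes lie to the right and junction genes to the left on both shBMI1 arrays, and most other lists lie within 0.1 of 0.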

How the data were processed

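RNA from the 8 samples was hybridised to whole-transcript arrays. The authors deposited log2 expression values per probe set, with RMA named in the submitters' processing notes beside limma. RMA corrects background, applies quantile normalization and summarises probes. Its version and the probe definitions used are not stated in the labels. RMA gives arrays a common distribution, so a shift of most genes would not be seen, and it compresses differences of dim genes. Of 53617 probe sets, 16098 had 1 gene symbol in the platform annotation, 0 several and 37519 none. The probe set with the highest mean stood for a gene (779 genes had several), leaving 14884. Group means were fitted over all 8 arrays with limma 3.58.1 in R 4.3.3 (4 residual degrees of freedom, no filter), two-sided, with Benjamini-Hochberg adjustment over all genes of a comparison. Errors after differences are standard errors. The fit was tested on simulated data. The number of arrays limits precision.

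Named genes were EZH2, the 12 protein-coding genes with the largest difference from shGFP in each direction (unadjusted p under 0.05, no overlap of groups; uncharacterised, olfactory receptor and keratin-associated symbols left out), the 5 genes with the smallest p in each direction, up to 4 members of each list, and the 6 protein-coding genes with the smallest p in each direction in the other comparisons. Others (PCGF2, RING1, DSC3, ZEB1, SNAI1, FN1, KRT5, DSP, SFN) were added after their values were seen. The genes and lists were chosen with earlier results of these data known. Sequences came from RefSeq tables.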

Additional observations from a re-analysis of the deposited data

Results flagged for a closer look

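Differences between 2 hairpins aimed at the same complex passed the test for 2 genes. LIF differed by -0.93 ± 0.09 between shBMI1 and shRING1B (limma adjusted p = 0.0439), with both shRING1B arrays above the shBMI1 arrays. KRTAP2-3 differed by -1.13 ± 0.11 (adjusted p = 0.0439), again with both shRING1B arrays higher. Against shGFP, LIF was at -0.08 with shBMI1 and at 0.84 with shRING1B, and KRTAP2-3 at -0.29 and 0.84, in 2 comparisons that share the control arrays. Over the alternatives the adjusted p of the shBMI1 and shRING1B difference reached 0.435 for both genes.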

How the results depend on the processing

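Against shGFP the count of genes past the adjusted threshold was 0 under every alternative run, with the smallest adjusted p between 0.0588 (trended robust variance) and 0.799 (only the arrays compared). Genes at an unadjusted p under 0.05 numbered from 571 to 973, and with each array centred on its median the split was 499 higher and 318 lower. The genes themselves changed more than the count. Of the 830 in the main fit, 605 remained with only the arrays compared and 575 with a trended robust variance. Fewer than these remained on leaving out any 1 array of the 2 groups. With all probe sets, named or not, an alternative chosen after seeing the data, 2764 had an unadjusted p under 0.05 and 50865 had an interval within 1 log2 unit. The replicate numbers are shared by the groups but the labels do not say that they pair samples. Deviations of same-numbered arrays correlated at 0.248 between shBMI1 and shGFP and at 0.001 to 0.116 between other groups. Fitted with a replicate block, the calls against the other 3 hairpins fell from 8 to 1 (S100A7) and those against shRING1B from 2 to 0. Calls against the other 3 hairpins numbered 0 without the shEZH2 arrays, 0 with all probe sets, 0 to 0 on leaving out any array, 15 with protein-coding genes alone, 24 without the dimmest 30% of genes and 55 with a trended robust variance. Those last 3 include the same 8 genes. Calls against shRING1B numbered 0 with only the arrays compared, without shEZH2, with median centring, with array weights, with all probe sets and on leaving out any array (0 to 0), 18 without dim genes and 38 with a trended robust variance. Of the genes the naming rule picks, 4 changed sign against shGFP on leaving out 1 array. CDKN2A ranged from -0.031 (without shGFP replicate 2) to 0.070, EZH2 from -0.164 to 0.034 (without shBMI1 replicate 1), ERAP2 from -0.020 (without shBMI1 replicate 2) to 0.189, and PLEC from -0.198 to 0.014 (without shGFP replicate 2). The medians of the desmosome (-0.19 to -0.13), tight and adherens junction (-0.19 to -0.08) and mesenchymal lists (0.08 to 0.22) kept their sign under every alternative run. The causes of these differences were not tested.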

Other observations

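Lists of growth and metabolism held few single genes at an unadjusted p under 0.05 between shBMI1 and shGFP. Of 27 G1/S genes and 38 G2/M genes, 0 had an unadjusted p under 0.05, and the medians were -0.03 and 0.03. Both shBMI1 arrays were above both controls for 8 G2/M genes (21.1%, beside 14% of all genes) and below both for 0, and above all 6 other arrays for 8 (2.9% of all genes were). Relative to the control mean, the G2/M median was 0.08 and 0.01 with shBMI1. It was -0.21 and -0.07 with shRING1B and -0.27 and -0.28 with shEZH2, so the other knockdowns were below the controls for this list. The mitotic gene PTTG1, securin, was at 6.41 and 6.52 against 6.29 and 6.12, above every other array of the series. Of 26 DNA damage response genes, 15 oxidative phosphorylation genes, 28 antioxidant genes and 26 genes of cholesterol and fatty acid synthesis, 0 had an unadjusted p under 0.05. Most antioxidant genes (21 of 28, median -0.04) and cholesterol and fatty acid genes (20 of 26, median -0.06) were negative, beside 7955 of all 14884 genes. Of 22 ATF4 and unfolded protein stress genes, 17 were negative and 5 positive (median -0.05). The stress factor DDIT3 (0.28) alone of them had an unadjusted p under 0.05 (4.55%, beside 5.58% of all genes). Its shRING1B and shEZH2 arrays were as high or higher.

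By kind of gene, the share at an unadjusted p under 0.05 was 573 of 11916 protein-coding genes (4.81%), 110 of 1398 long noncoding RNAs (7.87%), 105 of 1072 microRNA genes (9.79%) and 40 of 447 transcribed pseudogenes (8.95%). The median level was 7.40, 5.28, 4.48 and 5.56 in the same order, so each of the 3 noncoding kinds was dimmer than the protein-coding genes.

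Probe sets without a gene symbol held larger differences than any named gene. Tested with all probe sets, an addition made after seeing the data, 2213 of the 37519 unnamed ones (5.9%) had an unadjusted p under 0.05 and 0 passed after adjustment. Probe set 16908616 was at 6.09 and 5.42 with shBMI1 and at 3.58 and 3.40 with shGFP (difference 2.26 ± 0.26, limma adjusted p = 0.755), with the other knockdowns between 4.63 and 5.75. Probe set 16934237 was at 6.18 and 6.02 against 4.47 and 4.90, above every other array.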
